A study of Mus musculus with 10 samples.

Results

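Immediate early response genes were examined in 10 mouse pancreatic tumors as a group of 10 genes, Fos, Fosb, Jun, Junb, Egr1, Egr2, Ier2, Ier3, Nr4a1 and Atf3, among 55359 genes in the deposited table. The members were found by matching each mouse Ensembl identifier, without its version, to these symbols, and all 10 were above 0 in every tumor and were among the 24560 genes tested. The rule itself uses no measured value, although the group was proposed with earlier results of these data known, and it was set up to ask whether the members agree from tumor to tumor, as tissue handling or stimulation might make them do.

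The tumors grew from luciferase-expressing KPC K8484 cells, a mouse pancreatic cancer line, which were placed in the pancreas of C57BL/6 J animals aged 10 weeks. The 5 mice of the normoglycemic group (CTRL) drank regular water and the 5 mice of the other group drank 30% dextrose water (D30) for 14 days, with the same line, strain and implantation site in both groups. All 10 tumors derive from 1 cell line, and RNA was taken from whole tumors, so that a smaller share of a cell type and less RNA per cell cannot be told apart. Tumors are named as in the table, N1, N2, N4, N5 and N6 for CTRL and T1, T2, T4, T5 and T7 for D30: the N columns were assigned by their letter and the T columns as the only other group. The titles of the samples call the tumors PDX (patient-derived xenograft), whereas their source names the mouse line.

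Immediate early genes are transcribed within minutes of a stimulus such as a growth factor, a cytokine, calcium entry or physical injury, without the need for new protein. MAP kinases and cyclic AMP signalling reach them through serum response factor with its ETS partners and through CREB, which bind the CArG box and the cyclic AMP response element of their promoters. Most of their messages are short-lived, and many encode transcription factors whose own targets include inhibitors of the pathway. Dissection and the time before a tissue is frozen are known to induce several of them.

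Depth was 29915331 to 42122304 reads in the CTRL tumors and 29192261 to 37126175 in the D30 tumors, and T5 had the fewest genes detected, 20482 against 23446 to 25912 elsewhere. Summed over 8 markers, tumor epithelium reached normalized counts from 209950.3 to 335623 (CTRL) and from 341449 to 476102 (D30), led by keratins, while Epcam, a surface marker of epithelium, ranged only from 0 to 191. T4 was the only tumor with reads of the 4 Y-linked genes examined, for example a normalized count of 392 for Ddx3y. T4 and N1 also stood apart by base composition: genes in the highest decile of GC content deviated from those in the lowest decile by -1.50 in T4 and -0.85 in N1 on the log2 scale, against 0.05 to 0.58 in the other 8 tumors. Results for members that rest on T4 or T5 are therefore given with and without them. Values of most other list genes are given with all tumors only.

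Promoters of 8 members were taken from the RefSeq table (GRCm38.p6), as windows from 250 bases before to 50 bases after the transcription start. The chromosome of Egr1 was left out of the search for members' windows, so that the promoter of Egr1 was not examined, and Ier2 had no window. Shown here are the 150 bases before the start, 5′ to 3′ on the strand of the gene, for Fos and Atf3, which have the largest differences between the groups, and for Egr2 and Nr4a1, of which the first holds the CArG box and the second an EGR site. Capitals mark matches, on either strand, to the core of the cyclic AMP response element (TGACG, which reads CGTCA on the other strand), the CArG box, the EGR site (GCGNGGGCG) and the TATA box (TATAAA). The stretches are chr12:85473740-85473889 on the + strand for Fos, chr1:191183334-191183483 on the - strand for Atf3, chr10:67537719-67537868 on the + strand for Egr2 and chr15:101266696-101266845 on the + strand for Nr4a1.
Fos: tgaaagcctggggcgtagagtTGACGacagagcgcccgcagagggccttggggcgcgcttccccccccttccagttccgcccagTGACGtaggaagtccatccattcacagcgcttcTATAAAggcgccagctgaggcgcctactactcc
Atf3: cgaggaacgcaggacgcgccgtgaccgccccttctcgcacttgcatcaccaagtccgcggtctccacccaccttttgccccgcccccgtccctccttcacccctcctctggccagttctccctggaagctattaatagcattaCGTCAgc
Egr2: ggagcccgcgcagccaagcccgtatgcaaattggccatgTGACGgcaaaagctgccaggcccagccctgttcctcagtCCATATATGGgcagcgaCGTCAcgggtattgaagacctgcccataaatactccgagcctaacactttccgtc
Nr4a1: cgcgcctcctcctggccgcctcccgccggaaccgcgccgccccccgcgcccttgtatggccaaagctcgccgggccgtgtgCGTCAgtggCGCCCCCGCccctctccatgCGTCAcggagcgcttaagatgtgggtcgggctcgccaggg

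The core element lay in the windows of 6 of the 8 members (Fos, Fosb, Junb, Egr2, Nr4a1 and Atf3), where Egr2 has 5 windows and the others 1 each, and 20.8% of all 32851 promoter windows held it. In Fos it began at -129 and at -66 from the start, with the TATA box at -33. Among these 8 members, which do not include Egr1, a CArG box was found in Egr2, at -72 in the window shown, and in 1.63% of all windows. Some other windows of Egr2 held a box at -72, -73 or -133 from their own starts. Sites more than 250 bases before a start lie outside the windows, so that a CArG box further upstream, in Fos or another member, was not looked for. The EGR site was found in Fosb and Nr4a1 and in 5.55% of all windows. TATAAA was found in Fos and Junb and in 13.6% of all windows, but in Junb it lay on the start itself, from 0 to 5, and not before it. The full element TGACGTCA (1.79%) and the AP-1 site TGANTCA (7.81%) were in none of the members' windows examined. The full element contains the core. Such matches describe letters in the window and were not tested for function.

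Per kilobase of exon, Junb had the highest level of the group in the CTRL tumors, with a mean normalized count of 5784 ± 1189.8 per kb (SD, n = 5). Ier3 (2169 per kb) and Ier2 (1879 per kb) followed, then Jun (922 per kb), and the other 6 lay between 51.1 (Fosb) and 237 (Fos). In CTRL the ranges of Junb, of Ier3 with Ier2, of Jun, of Fos, Egr1, Atf3 and Nr4a1, and of Egr2 with Fosb did not overlap from one set to the next. Within each set, neighbouring genes overlapped. In D30 every pair of neighbours in the order overlapped.

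By limma's moderated test on log2(normalized count + 1), 0 of the 10 members passed an adjusted p (Benjamini-Hochberg) of 0.05, where 2.76% of all genes tested did. Fos and Atf3 had an unadjusted p under 0.05, both higher in D30, and 2 of 10 is close to the background of 17.3% of all genes. The fitted log2 fold change was above 0 for 9 members and below 0 for 1, with a median of 0.46 against -0.06 over all genes tested. The groups of tumors did not overlap for 1 member, Atf3 (higher in D30), whereas 2.87% of all genes had D30 tumors wholly above CTRL. The lean of the fold changes depended on both T4 and T5. Without T5, 7 members were above 0 and 3 below and the median was 0.07. Without T4, all 10 members were above 0 and the median was 0.64. Without T4 and T5 together it was 0.32, with 9 members above 0, and scaling by library size alone put 6 above 0 and 4 below.

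**Figure D1:**
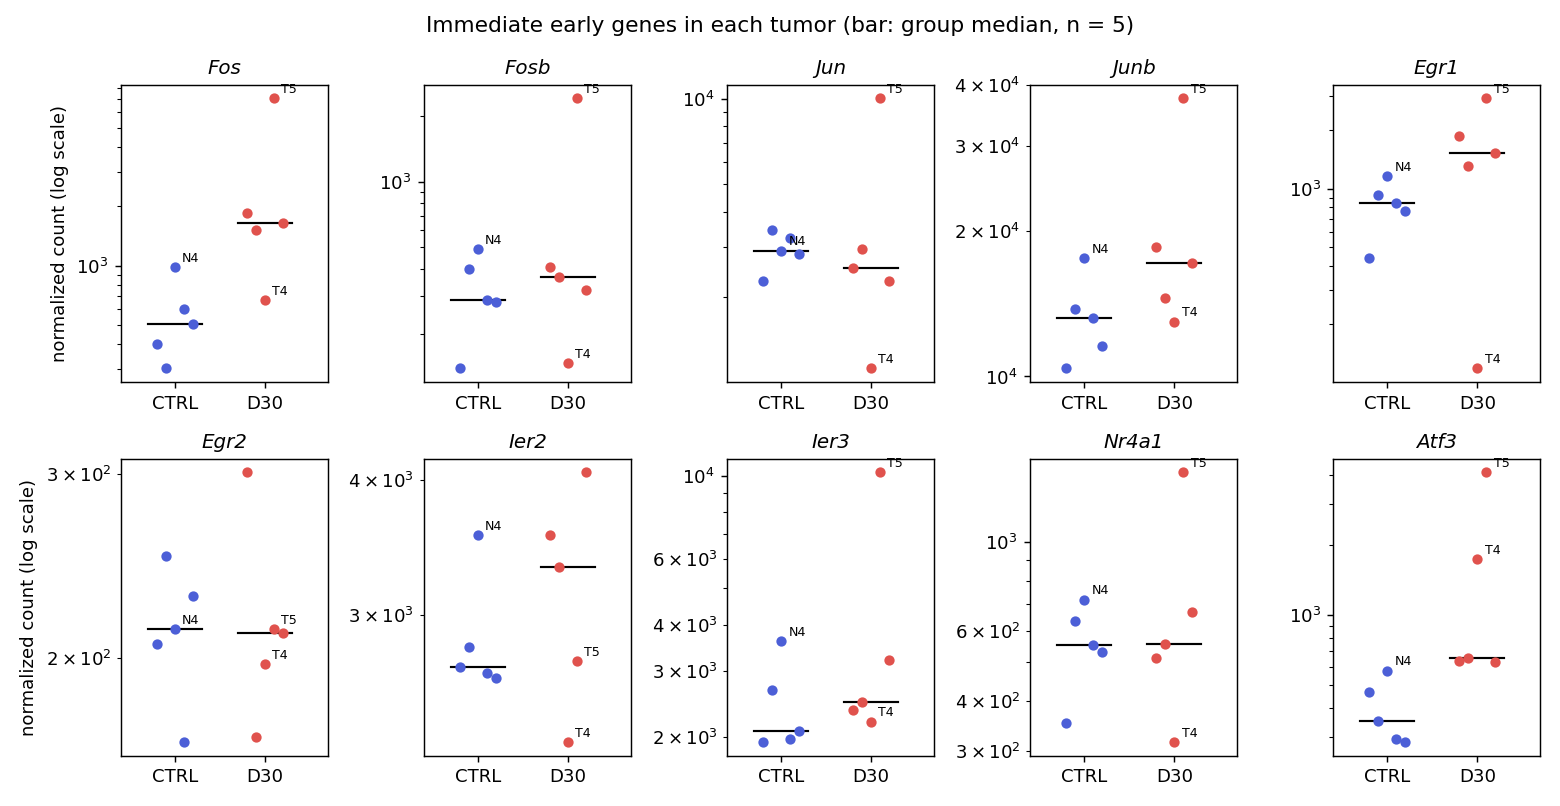
Normalized count (log scale, 1 panel per gene) of the 10 immediate early genes in each CTRL tumor (blue) and each D30 tumor (red), with bars at the group medians and with N4, T4 and T5 labelled. T5 is the highest tumor in 8 panels, for example Fos at 7057, and T4 the lowest D30 tumor in 8.

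The AP-1 subunits were described first. Fos (chr12:85473890-85477273, + strand, GENCODE M21 on GRCm38), the best known of these genes and a partner of JUN proteins in AP-1, had normalized counts of 402, 301, 979, 606 and 503 in N1, N2, N4, N5 and N6. In T1, T2, T4, T5 and T7 it had 1841, 1515, 669.7, 7057 and 1638. Of the D30 tumors, only T4 lay within the CTRL range, and T5 was 3.83 times the next D30 tumor. The mean was 558 ± 261 in CTRL and 2544 ± 2562 in D30 (SD, n = 5), or 1416 ± 516 without T5. The log2 fold change was 1.84 ± 0.506 (SE) with an adjusted p of 0.0739 by limma, and the D30 to CTRL ratio of medians was 3.26. Without T4, Fos passed the test, at a log2 fold change of 2.21 and an adjusted p of 0.00973 by limma, where 6.43% of all genes passed. Without T5 it did not, at 1.36 and an adjusted p of 0.0736 by limma, where 3.54% passed. Without both it was 1.69 ± 0.293 (SE) with an adjusted p of 0.00314 by limma, where 9.97% of all genes passed.

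Fosb (chr7:19302696-19310051, - strand), a second FOS protein with a delayed and longer response, gave 139, 398, 489.7, 288 and 279.8 in the 5 CTRL tumors in the same order. The D30 tumors had 407, 364, 147, 2419 and 317. T5 alone exceeded the CTRL range and was 5.94 times the next D30 tumor, while the other 4 D30 tumors, at 309 ± 114 (SD), lay within it. Its fitted difference was a log2 fold change of 0.59 ± 0.599 (SE; adjusted p = 0.666, limma), and without T5 it was -0.03.

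Jun (chr4:95049034-95052222, - strand), the namesake JUN subunit, stood at 2274, 3445, 2915, 3230.4 and 2831 in CTRL. In D30 it was measured at 2529, 2951, 1118, 10034 and 2281. The extremes of all 10 tumors were both D30 tumors, T5 high and T4 low, and the CTRL values lay between them. For Jun, a log2 fold change of -0.03 ± 0.432 (SE; adjusted p = 0.985, limma) moved to 0.31 without T4 and to -0.48 without T5. The gene overlaps its antisense gene Junos, which had a mean normalized count of 91.7.

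Junb (chr8:84974484-84978718, - strand), a JUN protein that can restrain JUN, was the most abundant member, with 10392, 13820.0, 17570.3, 13199 and 11566 in CTRL. The D30 values were 18478, 14553, 12971, 37551 and 17151. T5 was 2.03 times the next D30 tumor, T1 also exceeded the highest CTRL tumor, N4, and the other 3 D30 tumors overlapped with CTRL. Between the groups, the log2 fold change was 0.51 ± 0.275 (SE; adjusted p = 0.370, limma), 0.26 without T5. Junb overlaps Prdx2 on the opposite strand, a peroxiredoxin with a mean normalized count of 17217, and since the use of strand in the counting is not given in the sources used here, their reads may not be fully separate.

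Within the FOS family, the share of Fos differed between the groups. Per kb, Fos made up 16.5 to 41.7% of the sum of Fos, Fosb, Fosl1 and Fosl2 in the CTRL tumors and 50.6 to 66.8% in the D30 tumors, with no overlap. Fosl2 made up 35.2 to 46.7% in CTRL and 19.5 to 34.3% in D30, and Fosl1 15.3 to 28.6% and 5.14 to 15.2%, each without overlap, and Fosb stayed between 3.98 and 8.62% in all tumors. These shares sum to the whole in each tumor, so that they are not independent, and they were not tested. The normalized counts of Fosl1 and Fosl2 themselves overlapped between the groups, with log2 fold changes of -0.07 and 0.35 by limma. In the JUN family, Junb held the largest share throughout, 61.5 to 70.1% in CTRL and 53.8 to 75.2% in D30, while Jun held 8.08 to 11.5% and 4.68 to 10.4%.

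Atf3 (chr1:191170296-191218039, - strand) encodes a CREB-family factor that is induced by stress and can pair with JUN proteins. Its normalized count was 468, 351, 577, 294 and 284 in CTRL. The D30 tumors read 635, 655, 1738, 4121 and 628. All 5 D30 tumors lay above the highest CTRL tumor, and unlike for the other members T4 was the second highest of the 10. The mean was 395 ± 125 in CTRL and 1556 ± 1511 in D30 (SD, n = 5), and the ratio of medians was 1.86. The log2 fold change was 1.58 ± 0.478 (SE) with an adjusted p of 0.106 by limma. It was 1.11 without T5, 1.42 without T4 and 0.75 ± 0.230 (SE) without both, with adjusted p values of 0.109, 0.0991 and 0.0573 by limma. The lowest D30 tumor, T7 at 628, and the highest CTRL tumor, N4 at 577, were thus close to each other.

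The zinc finger factors EGR1 and EGR2 bind GC-rich sites. Egr1 (chr18:34859823-34864984, + strand), which is induced by growth factors and injury alike, had 439, 925, 1159, 846 and 764 in CTRL. It had 1877, 1318, 118, 2927 and 1535 in D30. All D30 tumors but T4 exceeded the highest CTRL tumor, while T4 was the lowest of all 10. With 10 tumors the log2 fold change was 0.42 ± 0.678 (SE; adjusted p = 0.799, limma). Without T4 it was 1.21 ± 0.282 (SE) with an adjusted p of 0.0233 by limma, and without T4 and T5 together 0.98 ± 0.258 (SE) with an adjusted p of 0.0288. Without T5 alone it was 0.06 (adjusted p = 0.979, limma). T4 thus decided whether Egr1 was called.

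Egr2 (chr10:67535475-67542188, + strand), best known for its role in myelinating cells and lymphocytes, was low and varied little, at 206, 250.1, 213, 166 and 229 in CTRL. In D30 it read 301, 168, 197, 213 and 211. T5 was in the middle of its range, the groups overlapped fully apart from T1, and the log2 fold change was 0.02 ± 0.234 (SE; adjusted p = 0.978, limma).

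Nr4a1 (chr15:101254269-101274795, + strand) encodes the orphan nuclear receptor NUR77. The CTRL tumors gave 353, 635, 717, 552 and 530.5, and the D30 tumors 512, 557, 316, 1496 and 668. T5 was 2.24 times the next D30 tumor, T4 was the lowest of all 10, and the other 3 D30 tumors lay within the CTRL range. Nr4a1 had a log2 fold change of 0.19 ± 0.354 (SE; adjusted p = 0.836, limma) and -0.13 without T5.

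Ier2 and Ier3 are small immediate early response proteins, the latter a regulator of cell survival and of ERK signalling. Ier2 (chr8:84661331-84662852, - strand) was measured at 2683, 2796, 3558, 2648 and 2617 in CTRL and at 3558, 3322, 2282, 2713 and 4070.2 in D30. Here T7 was highest and T4 lowest, T5 lay near the CTRL median of 2683, and the log2 fold change was 0.14 ± 0.192 (SE; adjusted p = 0.764, limma). Ier3 (chr17:35821684-35822923, + strand) was measured at 1937, 2667, 3606, 1980.4 and 2076 in CTRL and at 2361, 2476, 2199, 10247 and 3216 in D30. T5 was 3.19 times the next D30 tumor, and the other 4 D30 tumors, at 2563 ± 450.0 (SD), fell within the CTRL range. The log2 fold change was 0.49 ± 0.377 (SE; adjusted p = 0.543, limma), 0.09 without T5.

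**Figure D2:**
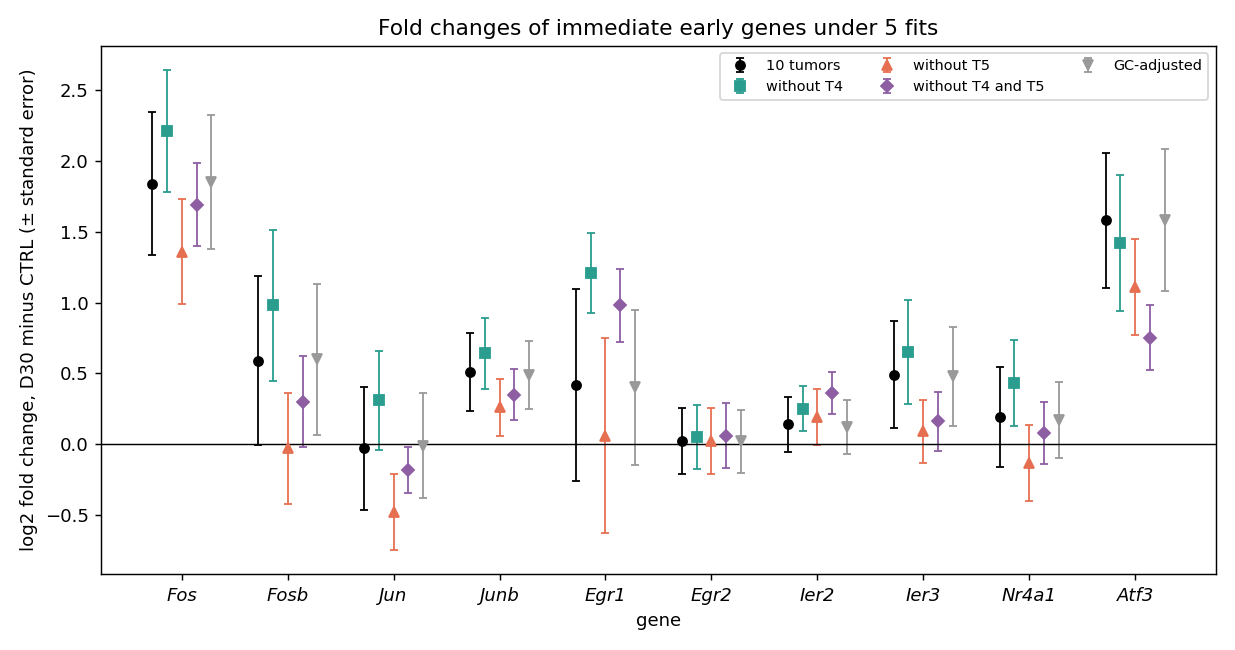
Log2 fold change (D30 minus CTRL) with its standard error for each immediate early gene, fitted by limma with all 10 tumors, without T4, without T5, without both and on GC-adjusted values. Fos and Atf3 lie above 1 in the fit of all tumors and Egr1 rises from 0.42 to 1.21 once T4 is left out.

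T5 was the highest of all 10 tumors in 8 of 10 members (all but Egr2 and Ier2), as it was in 18.9% of all genes tested and in 16.5% of those with a mean of at least 100. It was at least 2 times the next D30 tumor in 7 members, where 8.41% of all genes and 2.66% of those with a mean of at least 100 were. T4 was the lowest D30 tumor in 8 members, for which no share over all genes was computed. It was the lowest of all 10 tumors in 4 members (Jun, Egr1, Ier2 and Nr4a1). The same held for 22.3% of all genes and for 32.4% of those with a mean of at least 100, so that 4 of 10 is close to the latter share. In CTRL, N4 was the highest tumor in 8 members (18.7% of all genes) and N1 the lowest in 6 (33.3%). Averaged over the 10 members, the log2 deviation from the mean of all tumors was -0.66, -0.22, 0.17, -0.35 and -0.39 in N1, N2, N4, N5 and N6 and 0.25, 0.07, -0.67, 1.61 and 0.19 in T1, T2, T4, T5 and T7. The spread within D30, from T4 to T5, was therefore wider than the spread within CTRL, and N4 lay between T2 and T7.

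**Figure D3:**
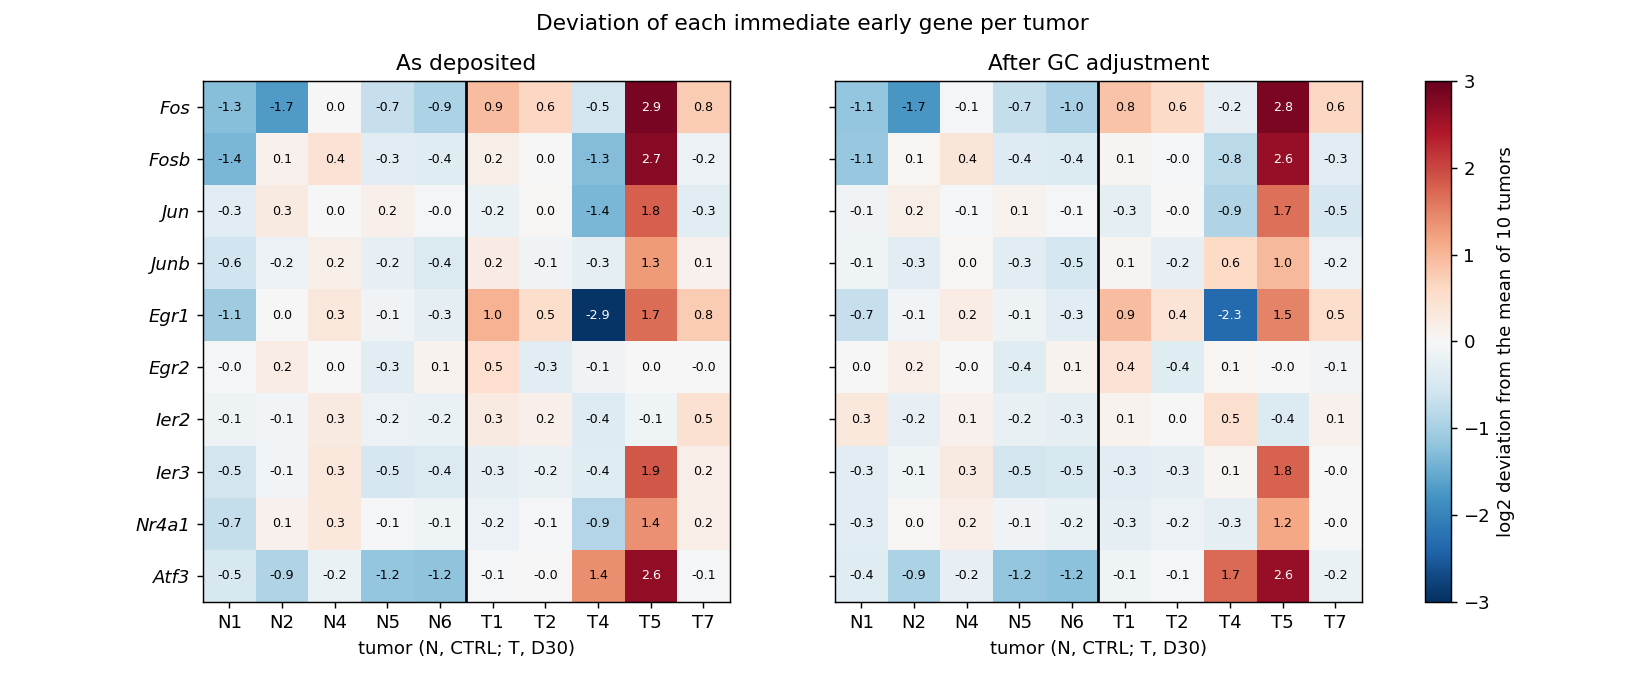
Log2 deviation of each immediate early gene (rows) from its mean over the 10 tumors (columns, CTRL left and D30 right of the line), as deposited and after GC adjustment. The T5 column stands out in both panels, at 2.85 and 2.83 for Fos, while for T4 Egr1 moves from -2.94 to -2.33.

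The members differ in GC content, from 51.4% (Egr2) to 62.6% (Junb, at percentile 98.6 of tested genes, with Ier2 at 97.3). After the median deviation of genes of like GC content was taken off each tumor, T5 still deviated by 2.83 for Fos, 2.61 for Fosb, 2.62 for Atf3, 1.77 for Ier3, 1.66 for Jun, 1.48 for Egr1, 1.17 for Nr4a1 and 0.98 for Junb on the log2 scale. T5 remained the highest of all 10 tumors in the same 8 members. The low position of T4 held for fewer genes: it was the lowest D30 tumor in 4 members (Fos, Fosb, Jun and Egr1) in place of 8 and the lowest of all 10 in 2 (Jun and Egr1) in place of 4. In T4, Junb turned from -0.27 to 0.59, Ier2 from -0.38 to 0.47, Ier3 from -0.36 to 0.08 and Egr2 from -0.11 to 0.07, Nr4a1 moved from -0.87 to -0.26, and Egr1 (-2.33), Jun (-0.90) and Fosb (-0.82) stayed low. N1 was the lowest CTRL tumor in 4 members in place of 6. Fos had a log2 fold change of 1.85 ± 0.474 (SE) and an adjusted p of 0.0522 by limma on these values, and 0 members passed, where 3.31% of all genes did.

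Agreement among the members was then described by the correlation of each with the mean of the other 9, as deviations from the group means over 10 tumors that share their libraries. Pearson's r was 0.97 for Fosb and Junb, 0.96 for Nr4a1, 0.92 for Jun, 0.91 for Fos and Ier3 and 0.72 for Egr1, but 0.40 for Atf3, 0.18 for Ier2 and 0.11 for Egr2. Without T5, over 9 tumors, r ranged from 0.68 (Ier3) to 0.91 (Ier2) for 8 members and was 0.23 for Egr2 and -0.59 for Atf3, in which T4 is high. Without T4 and T5, over 8 tumors, Junb (0.96), Egr1 (0.88) and Fosb (0.85) were highest, while Jun (0.29), Atf3 (0.27) and Egr2 (0.14) were low. The agreement of Jun and Fos with the others therefore rested in large part on T4 and T5.

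Among 12205 other genes with a mean of at least 100, 804 (6.59%) had an r of at least 0.8 with the mean of the members. The 5 most like it over the 10 tumors were Gapdh (r = 0.99), Tnip1 (0.99), Slc3a2 (0.99), Shb (0.99) and Siah2 (0.98), and each stayed at 0.95 or above without T5. Gapdh, a glycolytic enzyme, had a normalized count of 347275 in T5 against 66688 to 132943 elsewhere. The log2 fold changes of these 5 genes were 0.17 to 0.70, and none was called.

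T5 was the highest of all 10 tumors in 13 of 20 other immediate early transcription factors, 14 of 22 feedback inhibitors and 16 of 23 early effectors, but in 5 of 22 upstream factors, beside 18.9% of all genes tested. Of the 20 other factors, 0 were called by limma, 4 had an unadjusted p under 0.05 with higher values in D30 and 1 with lower, and the median log2 fold change was 0.43. Maff, a small MAF factor, was 2015, 1829, 2309.7, 2005 and 1671 in CTRL and 2688, 2871, 5406, 6718 and 2828 in D30 (log2 fold change 0.96 ± 0.265 SE, adjusted p = 0.0754, limma), with no overlap. Nr4a2, a receptor related to Nr4a1, went the other way, at 309 to 558 in CTRL and 202 to 308 in D30 (-0.73 ± 0.227 SE, adjusted p = 0.112, limma).

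Of 22 feedback inhibitors, 3 were called higher and 0 lower by limma, beside 2.76% of all genes called in either direction. At an unadjusted p under 0.05 (limma), 8 were higher in D30 and 1, Spred1, was lower, where 17.3% of all genes passed. The median log2 fold change was 0.50. Spry2, which inhibits receptor tyrosine kinase signalling, had 750.1, 747, 836, 745 and 727 in CTRL and 1429, 1663, 1587, 1549.9 and 1419.9 in D30 (1.01 ± 0.154 SE, adjusted p = 0.00499, limma). Every D30 tumor, T4 and T5 included, lay well above every CTRL tumor. Btg2, an antiproliferative gene, ranged from 870.3 to 1247 in CTRL and from 1711 to 3318 in D30 (1.18 ± 0.210 SE, adjusted p = 0.0103, limma). Dusp5, a nuclear ERK phosphatase, ranged from 1075 to 2001 in CTRL and from 2353 to 4063 in D30 (log2 fold change 1.04, adjusted p = 0.0243, limma). Spry2 and Btg2 were also called when any 1 tumor was left out and by library size alone. Dusp5 was called without T4, without T5 and without both. It was not called without N1, N2, N5 or N6 (adjusted p = 0.0579 to 0.0815, limma), nor by library size alone (adjusted p = 0.0633, limma). Spred1, looked at after its values were seen, was not called with all tumors (log2 fold change -0.56, adjusted p = 0.186, limma). By library size alone it was called lower (-0.78, adjusted p = 0.0461, limma). It was also called lower, at -0.70, without T4 (adjusted p = 0.0252, limma) and without T4 and T5 together (adjusted p = 0.0243, limma).

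Of 23 early effectors, 0 were called, 5 had an unadjusted p under 0.05 and all of these were higher in D30, and the median was 0.37. Plaur, the urokinase receptor, was 3240.1 to 5103 in CTRL and 5175 to 11861 in D30 (0.77 ± 0.234 SE, adjusted p = 0.105, limma). Cxcl2, a neutrophil-attracting chemokine, was 33.7, 56.4, 116, 37.2 and 66.7 in CTRL and 70.9, 112, 1411, 8064 and 165 in D30, so that T4 and T5 stood far above all others (adjusted p = 0.172, limma). Of 22 upstream kinases and DNA-binding factors, 0 were called, 2 were higher and 2 lower at an unadjusted p under 0.05, and the median was -0.04. Elk1, an ETS partner of serum response factor, ranged from 673 to 938 in CTRL and from 489 to 707 in D30 (adjusted p = 0.193, limma), and Mapk3, which encodes ERK1, from 6823 to 10903 and from 7897 to 15310.3 (adjusted p = 0.216, limma).

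Heat shock and metallothionein genes, which also answer to stress, had 0 calls among 12 by limma, 3 with an unadjusted p under 0.05, all higher in D30, and a median of 0.54. Mt1, a metal-binding protein, was 8234 to 18075 in CTRL and 18449, 17684, 30213, 94569.9 and 31024 in D30 (1.42 ± 0.401 SE, adjusted p = 0.0803, limma). Mt2 was 0.885 to 31.1 in CTRL and 40.1, 14.9, 76.3, 711 and 58.6 in D30 (adjusted p = 0.0993, limma). T5 was the highest tumor for both.

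Markers of other cells differed between the tumors as well. The summed normalized count of 8 neutrophil markers was 16498 in T5 against 679 to 3337 in CTRL and 825 to 6258 in the other D30 tumors. T5 was highest in 7 of 8, but 0 were called. All 8 had fitted log2 fold changes above 0, with a median of 1.71, and 4 had an unadjusted p under 0.05 (limma), beside 17.3% of all genes. The mean deviation of the members was 1.61 in T5 and 0.07 in T2, which had the second highest sum at 6258. A relation between the 2 lists was not tested. Macrophage markers summed to 18656 to 31070.3 in CTRL and to 13793 to 26699 in the other D30 tumors, with 9666 in T5. Of these 8 markers, 2 were called lower in D30 (limma), and fitted changes were below 0 for 7 and above 0 for 1. Acinar markers, of normal pancreas, summed to 269 to 56128 in CTRL, 538 to 5366 in the other D30 tumors and 144 in T5, and 6 of 8 were at 0 in T5 and in T2 alike and 4 in T1 and in T7. Islet markers summed to 17.7 to 1499.9 in CTRL and 14.4 to 83.6 in the other D30 tumors, with all 8 at 0 in T5 and 7 in T2 and in T7, and 4 were called lower in D30 (limma). Low levels of both were thus not particular to T5. Endothelial markers summed to 12411 to 19395 in CTRL and to 7749 to 10814 in D30, without overlap. The largest part of the sum was Cdh5, at 7205 to 14529 in CTRL and 2479.8 to 6142 in D30. It was the 1 of 8 called lower (limma) and the only 1 whose groups did not overlap. Fitted log2 fold changes were below 0 for 6 of the 8 and above 0 for 2, Vwf (0.38) and Cldn5 (0.33). The fibroblast, T cell, B cell, adipocyte, skeletal muscle and tumor epithelium lists had 0 calls. Fitted log2 fold changes were nevertheless below 0 for all 8 fibroblast, all 8 T cell, 6 of 8 B cell and 7 of 8 adipocyte markers. They were above 0 for 7 of 8 tumor epithelium and 5 of 6 tested skeletal muscle markers. N4 was the highest CTRL tumor in all 8 adipocyte markers. Their sum was 7457 in N4, against 2587 to 2933 in the other CTRL tumors and 2675 to 3441 in D30. The part of these cells, of sample handling and of the time to freezing in the T5 and T4 values was not tested, and no record of handling per tumor was used here.

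Counts recovered from the deposited values gave a different number of calls. DESeq2 called Fos (2.19, adjusted p = 0.00134) and Atf3 (1.98, adjusted p = 0.00295), where it called 8.17% of all genes. edgeR called none of the members, with adjusted p values of 0.0503 for Fos and 0.0589 for Atf3, where it called 4.13%. DESeq2 gave no p value for Ier3. Over all genes, limma called 344 higher and 334 lower, edgeR 457 of 707 higher, and scaling by library size alone 240 of 864 higher, with the median log2 fold change of all genes at -0.27 in place of -0.06.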

How the data were processed

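RNA from 10 tumors (5 CTRL, 5 D30) was sequenced with strand-specific paired libraries. The authors trimmed the reads, aligned them with STAR (2.7.0e per the submitters' processing notes, which name GRCm39, whereas the methods name hg38), and deposited 1 normalized signal per gene and tumor, in the form of DESeq2's normalized counts. Annotation release and counting settings are not given in the sources used here. In every tumor 100.0% of the values gave whole reads (within 0.1) once the step of that tumor was undone. Columns not used numbered 0. Identifiers were matched to GENCODE M21 (GRCm38), which named 94.1% of them, and positions are those of M21.

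Genes with a mean of at least 1 were tested by limma (3.58.1, R 4.3.3) with a mean-variance trend on log2(value + 1), so that fold changes of low genes are understated. Benjamini-Hochberg adjustment covered all genes tested, with a threshold of 0.05. The recovered reads were also tested by edgeR (4.0.16, quasi-likelihood) and DESeq2 (1.42.0). The other alternatives were a pseudocount of 5, no filter, a filter at a mean of 10, library size alone, upper quartile scaling and leaving out each tumor. Leaving out T4 and T5 together and adjusting for GC content (medians of 20 bins, longest transcript, 99.0% of genes) were chosen after seeing the data, as was a block on the number in the column name. The scripts were tested on simulated data.

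The members and lists were chosen with earlier results of these data known. Named genes are the 10 members, in each pathway list the called genes and the 2 with the smallest p, and the 5 genes most like the members' mean. The design gives each tumor as a biological replicate. Precision is limited by 5 tumors per group.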

Additional observations from a re-analysis of the deposited data

Results flagged for a closer look

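Within each group of 5 tumors, the gap between the highest or lowest tumor and its neighbour was compared with the whole range, against Dixon's 95% value, for 21 named genes. Of 42 groups, 13 had such a tumor, and in 10 of the 13 it was T5. The ratio was taken on normalized counts and not on the log2 scale of the fits. The rate of about 1 in 20 behind Dixon's value is for normally distributed values, which these counts need not be. The number of flags is therefore not compared with that rate. Among the members T5 stood apart in D30 for Fos (7057), Fosb (2419), Jun (10034), Junb (37551) and Ier3 (10247), and N4 stood apart in CTRL for Ier2 (3558). Among the other genes T5 stood apart for Dusp5 (4063), Plaur (11861), Cxcl2 (8064), Mt1 (94569.9) and Mt2 (711), and N4 for Spry2 (836) and Dusp5 (2001). The genes share their tumors, so the flags are not independent of each other.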

How the results depend on the processing

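Of the 10 members, 0 were called with all tumors by limma, 2 by DESeq2 (Fos and Atf3), 2 without T4 and T5 together (Fos and Egr1), and 0 to 2 when each tumor was left out in turn, the 2 coming without T4. Of the pathway genes, 3 were called by limma, 5 by edgeR, 13 by DESeq2 and 17 without T4 and T5, with 2 to 9 when each tumor was left out, the 9 without T4. Of the heat shock and metallothionein genes, 0 were called by limma, 2 by DESeq2 and 3 without T4 and T5. Over all genes, 678 calls became 1833 by DESeq2, 2418 without T4 and T5 and 279 to 1573 when each tumor was left out: 1573 without T4, 279 without N2, 332 without N6, 340 without N5 and 433 without T7. Dusp5 was not called without N1, N2, N5 or N6 nor by library size alone, which called 2 pathway genes higher and 1, Spred1, lower. Spred1 was also called lower without T4 and without T4 and T5 together. The sign of 5 members turned. The log2 fold change of Jun was 0.38 by edgeR, 0.36 by DESeq2 and 0.02 by upper quartile scaling, and -0.48 to 0.31 when each tumor was left out. By library size alone Egr2 was -0.20, Ier2 -0.09 and Nr4a1 -0.04. When each tumor was left out, Fosb ranged from -0.03 to 0.98, Egr2 from -0.10 to 0.11 and Nr4a1 from -0.13 to 0.43. Apart from what the omission of a tumor itself shows, the cause was not tested. Fos (1.36 to 2.21) and Atf3 (1.11 and above) stayed above 0 in all 17 of the edgeR, DESeq2, pseudocount, filter, scaling and leave-one-out fits. The numbers 1, 2, 4 and 5 occur in columns of both groups, but nothing ties them to a shared animal, litter or day. The deviations of same-numbered tumors correlated at -0.20 to 0.00 over genes, and none of the 4 CTRL tumors matched its own number best. With the column number as a replicate block, 17 genes were called in place of 678, with 0 members, 0 pathway genes and 0 heat shock and metallothionein genes, and the log2 fold change of Jun was 0.05. Tumors sharing only a number are not pairs, so these counts say nothing of a weaker effect.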

Other observations

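Relatives of the members that the rule for named genes does not include were looked at after their values were seen. Jund, a JUN protein that is less inducible than Jun, had normalized counts of 2023 to 4613 in CTRL and 4448, 5443, 2513, 18161 and 6964 in D30, and T5 was 2.61 times the next D30 tumor (log2 fold change 0.80 ± 0.423 SE, adjusted p = 0.358, limma). Fosl2 reached 8459 in T5 against 1371 in T4. Egr3, by contrast, was lower in T5 (83.6) and T4 (38.2) than in every CTRL tumor (104 to 209).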
